A study of Nannochloropsis oceanica with 15 samples.

Results

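The comparison set wild-type cells of Nannochloropsis oceanica strain IMET1 after 12 h of blue light against cells of the same strain in white light at 0 h, the time of the switch. It used 6 of the 15 libraries of the study, 3 of blue 12 h and 3 of white 0 h, chosen by their labels alone. What all groups shared was the wild-type strain, a column bioreactor, unbroken illumination (photon flux 80 ± 5 µmol per m2 each second), a temperature of 25 °C, a medium with 427.5 mg/L nitrate, and aeration at 0.6 vvm with air (0.04% CO2). The other 9 libraries, of red 12 h, red 24 h and blue 24 h, entered the estimate of the spread and are given beside the results only for place. White cells of 12 h were not analysed here, so the change of colour and the 12 h that passed cannot be told apart. Of 9756 gene models, the 9571 with at least 1 FPKM (fragments per kilobase of model, scaled by a total per library) in at least 3 of the 6 libraries were tested, and 185 were not.

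Nannochloropsis is a single-celled marine alga of the eustigmatophytes, known for storing carbon as triacylglycerol oil. Its light harvesting rests on chlorophyll a together with violaxanthin and other carotenoids, so blue light is absorbed by both pigment classes, while red light is absorbed by chlorophyll. Photosynthetic stramenopiles, the wider group it belongs to, carry aureochromes, transcription factors that bind DNA in response to blue light, besides cryptochromes. The deposited models carry no gene names apart from DGAT1A, so receptors, antenna proteins and pathway enzymes could not be looked up. Genes are therefore described by model, abundance, structure and place on the scaffolds.

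The libraries of each group lay close together. Each white library held about 4440000 to 6100000 fragments in gene models and each blue library 3880000 to 4890000, worked back from the spacing of low FPKM values. Within a group log2(FPKM + 1) correlated across models at 0.990 to 0.992, against 0.763 to 0.766 between a white and a blue library. Fragments of library pairs within a group differed by more than sampling noise, with a chi-square per degree of freedom of 1.32 to 1.63. White library 1 had a median of 20.3 FPKM, below the 24.7 and 25.0 of white libraries 2 and 3 and the 22.6 to 22.7 of the blue libraries. FPKM sums were 430453 to 528814 in white and 583142 to 591957 in blue libraries, without overlap (exact permutation test, two-sided, p = 0.1). That is the smallest p that 3 against 3 libraries allow. Red 24 h library 1 stood apart from the others of its group, with an FPKM sum of 815138 against 644393 and 611937. It enters the test only through the estimate of the spread, and 7014 models passed without it against 5615 with it. The red 24 h levels given for place below also include this library. Whether the 3 libraries of a group stem from different cultures is not said in the labels, and the p-values below therefore reflect library-to-library spread that may be technical. In RNA from a whole culture, fewer cells that express a gene and less of its RNA per cell cannot be told apart. FPKM gives levels relative to the library, not RNA per cell.

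After 12 h of blue light a large set of genes had fallen to a small fraction of its white-light level, while many others rose modestly. Of the 9571 tested models 5615 passed (58.7%, limma with Benjamini-Hochberg adjustment at 0.05). Of these, 3107 rose (32.5% of those tested) and 2508 fell (26.2%). On the deposited scale falls were the deeper changes. At least 2-fold falls numbered 1588 (16.6%) against 794 rises (8.3%), and at least 4-fold falls 851 (8.89%) against 48 rises (0.502%). At least 8-fold falls numbered 382 against 4 rises, and at least 16-fold falls 85 against 0 rises. Of the falls 63.3% were at least 2-fold, compared with 25.6% of the rises. In 73% of the tested models the blue libraries lay all above or all below the white ones.

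How many models rose against fell depended on the scale and on white library 1. The median change of all tested models was 0.14 on the log2 scale, and it moved to -0.00077 when libraries were set to a common sum that leaves out the top 50 models and to 0.26 with quantile normalization. Of the models that passed, 55.3% were rises on the deposited scale, 44.9% at that common sum, 44.3% with voom on recovered fragments, 63.2% after quantile normalization and 64.8% with the trend on exon length removed. Without white library 1 the order turned, with 2361 rises and 2596 falls. The excess of 2-fold falls over rises also narrowed, to 1421 against 1266 after quantile normalization and to 1444 against 1199 without the length trend, and it widened to 1858 against 496 with voom. Falls of at least 4-fold numbered 734 after quantile normalization, 754 without the length trend, 929 at the common sum and 1090 with voom, against 88, 59, 27 and 36 rises of that size. Of the 851 such falls on the deposited scale, 702 were still called at least 4-fold after quantile normalization and 753 without the length trend.

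**Figure D1:**
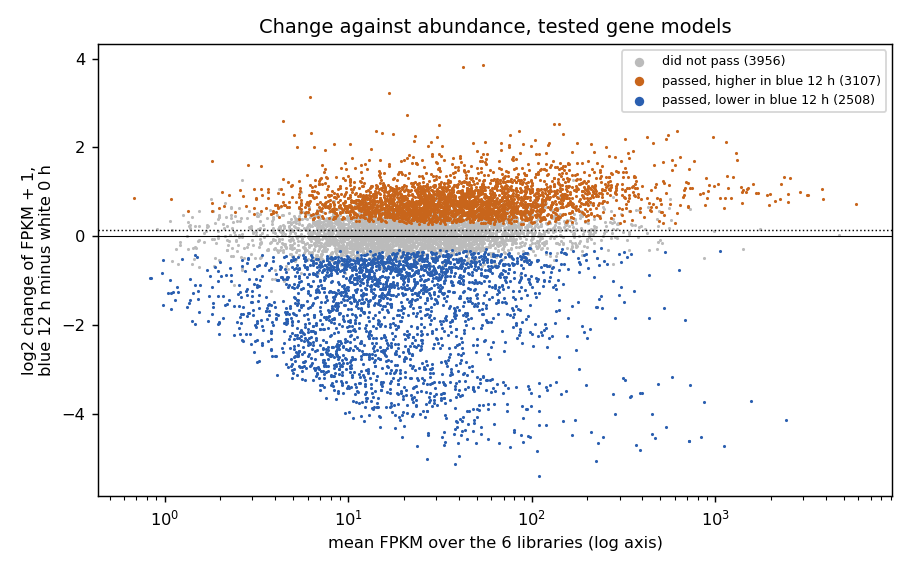
Log2 change of FPKM + 1 (blue 12 h minus white 0 h) of each of the 9571 tested models against its mean FPKM over the 6 libraries, on a log axis. Points in colour passed the test, the dotted line marks the median change of 0.14, and 851 models that fell lie at or below -2 while 48 that rose lie at or above 2.

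The shift of RNA between these sets was large and alike in every library. Models that fell at least 4-fold held 14.2%, 14.2% and 14.3% of the FPKM sum in the 3 white libraries and 1.06% in each blue library. All models that fell went from 29.2 ± 0.073% (SD, n = 3) of the sum in white to 7.54 ± 0.019% in blue. Models that rose went from 40.1 ± 0.077% to 64.7 ± 0.072%. These sets were chosen on the same values, so the shares describe how much of the RNA they made up. The shares also moved with the models called and the scale. Over the alternatives the fallen set held 25.8% to 38.3% in white and 5.59% to 14% in blue, and the risen set 32.9% to 49.1% in white and 55.3% to 74.8% in blue. The 100 most abundant models of each library took 21.8 ± 0.082% of its FPKM sum in white and 26.7 ± 0.12% in blue, with no overlap (exact permutation test, two-sided, p = 0.1, the smallest that 3 against 3 libraries allow).

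Some models that were expressed in white light were close to undetected in blue. In 90 of the 9571 tested models a white mean of at least 10 FPKM stood against a blue mean under 1 FPKM. Their white libraries alone met the filter for testing, with at least 8.38 FPKM in each. All 90 passed, which choosing them on the values that the test compares favoured. Their median was 13.3, 16.4 and 15.6 FPKM in white libraries 1, 2 and 3 and 0.615, 0.725 and 0.749 FPKM in the blue ones. In fragments the median of these models was 140.5 to 196 per white library and 4.5 to 6 per blue library, so their remaining level rests on a handful of fragments. The reverse, under 1 FPKM in white and at least 10 in blue, was met by 1 model. More models were listed at 0 in blue, 80 to 112 per library against 26 to 48 in white (exact permutation test, two-sided, p = 0.1). Blue library 2 held more fragments than white library 3 (4890000 against 4440000) and more models at 0 (80 against 48). On the other side, blue library 1 had the fewest fragments of the 6 libraries (3880000) and the most models at 0 (112). White library 2 had the most fragments (6100000) and the fewest models at 0 (26). The part of depth in these counts was not tested.

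The level of these sets was also read in the other groups. The median of the 851 models with a fall of at least 4-fold was 29.6 FPKM in white 0 h and 2.87 in blue 12 h, and it stood at 2.80 in red 12 h, 4.94 in red 24 h and 3.04 in blue 24 h. The 794 models with a rise of at least 2-fold had medians of 34.0 FPKM in white, 85.1 in blue 12 h, 77.7 in red 12 h, 75.9 in red 24 h and 80.1 in blue 24 h. The sets were chosen on white and blue 12 h, and in both the red and the blue 24 h medians lay on the blue 12 h side, while red 12 h, from the same hour, lay near blue 12 h. Tested directly, blue 12 h and red 12 h differed in 264 models (2.76%), of which 69 were higher in blue and 195 lower, and blue 24 h differed from blue 12 h in 695 (7.26%).

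**Figure D2:**
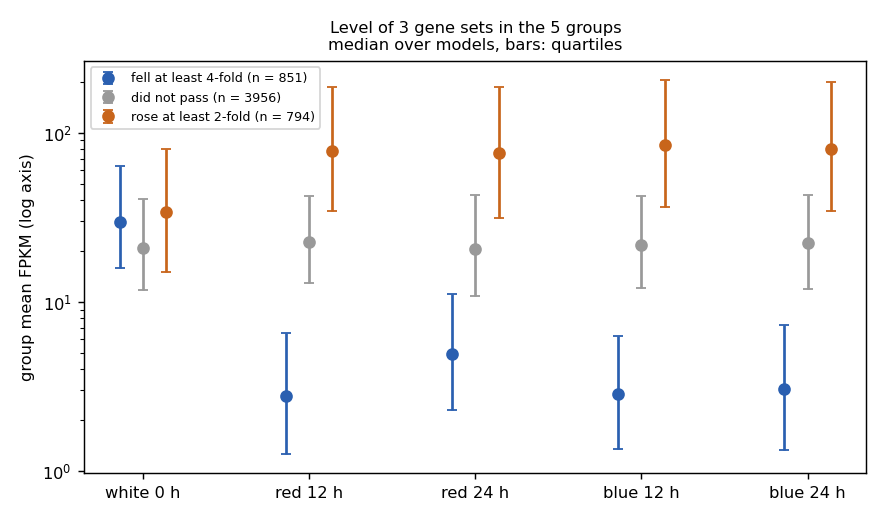
Median over models of the group mean FPKM, on a log axis, with bars from the lower to the upper quartile, for models that fell at least 4-fold, did not pass, or rose at least 2-fold between white 0 h and blue 12 h. The first set stands at 29.6 FPKM in white and at 2.80 to 4.94 in the 4 other groups, and the sets were chosen on the white and blue 12 h values.

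The deepest fall on the log2(FPKM + 1) scale, which holds back the change of low models, was that of scaffold00043.g1553 (positions 14516 to 19694, plus strand, 9 exons), near the first end of its scaffold. It had 184.9, 225.4 and 236.3 FPKM in white libraries 1, 2 and 3 and 3.65, 4.34 and 4.35 FPKM in the blue ones. The groups were far apart, but the choice of the model required that it passed and that the groups not overlap. The mean was 52.3-fold lower in blue, with a log2 change of -5.40 ± 0.16 (SE; limma adjusted p = 2.54e-12), and 4770 to 6317 fragments per white library became 62 to 93. Its level was 3.87 ± 0.335 FPKM (SD, n = 3) in red 12 h, which did not differ by the test from blue 12 h (log2 difference 0.07 ± 0.16, adjusted p = 0.925). It fell further to blue 24 h, by 0.58 ± 0.16 on the log2 scale (limma adjusted p = 0.0405), and that step passed in 15 of 28 alternatives (adjusted p 5.78e-05 to 0.151), failing among others without any 1 of the blue 12 h or blue 24 h libraries. The model before it, on the minus strand, fell from 432 ± 42.2 to 12.2 ± 3.09 FPKM, and the model after it from 19.7 ± 5.85 to 0.375 ± 0.650, where blue libraries 2 and 3 were listed at 0.

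The largest loss of RNA was in scaffold00140.g4815 (855415 to 857702, plus strand, 6 exons), which ranked 2 or 3 by FPKM in every white library. It had 4040, 4846 and 4873 FPKM in white and 256.0, 255.2 and 265.7 in blue. The blue values were nearly equal and 17.7-fold lower on average (log2 change -4.14 ± 0.16 SE, limma adjusted p = 3.28e-11). The model was chosen among those that passed without overlap of the groups. Its rank dropped to 312 to 339 and its share of the FPKM sum from between 0.922% and 0.939% to between 0.0432% and 0.0454%. Both neighbours fell with it. The model before it lies on the other strand with its start 844 nt away, so that the pair is transcribed outward from a shared stretch. It fell from 1847, 2275 and 2345 FPKM to 78.2, 84.0 and 78.2 (log2 change -4.72 ± 0.27). The model after it, on the minus strand, fell from 711 ± 82.7 to 26.3 ± 1.79 FPKM (log2 change -4.70 ± 0.14). In red 12 h scaffold00140.g4815 had 257 ± 21.1 FPKM (log2 difference of blue from red 0.02 ± 0.16, adjusted p = 0.984) and in blue 24 h 349 ± 6.23 FPKM (0.43 ± 0.16 above blue 12 h, adjusted p = 0.140).

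The largest rise on the log2(FPKM + 1) scale, among models with a group mean of at least 10 FPKM, was in scaffold00021.g991 (22727 to 23741, minus strand, 3 exons, 684 nt of exon), on a small scaffold of 17 models. It had 4.77, 7.13 and 6.6 FPKM in white and 103.4, 102.8 and 102.0 in blue. The choice of the model required that blue and white libraries not overlap. The blue ones lay far higher, 16.7-fold on average (log2 change 3.87 ± 0.21 SE, limma adjusted p = 9.78e-10). Fragments of the model went from 18 to 27 per white library to 233 to 297 per blue library. Its neighbours did not pass, with 8.56 ± 0.690 against 10.6 ± 0.972 FPKM before it (adjusted p = 0.159) and 13.8 ± 1.22 against 14.1 ± 0.807 after it (adjusted p = 0.932). In red 12 h it held 91.0 ± 2.98 FPKM (log2 difference 0.17 ± 0.21, adjusted p = 0.820). That difference passed in 2 of 28 alternatives (limma adjusted p 0.0309 to 0.935). In blue 24 h the model held 170 ± 6.25 FPKM, with a log2 difference of 0.72 ± 0.21 from blue 12 h (adjusted p = 0.0567). This step passed in 9 of 28 alternatives (adjusted p 7.22e-08 to 0.175).

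The largest gain of RNA was in scaffold00069.g2383 (445093 to 446789, plus strand, 5 exons), which became the most abundant model of all 3 blue libraries. It had 3618, 4854 and 4820 FPKM in white, where it ranked 2 or 3, and 7307, 7236 and 7281 in blue. The groups did not overlap, as the choice of the model required, and white library 1 lay lowest. The mean was 1.64-fold higher in blue (log2 change 0.73 ± 0.13 SE, limma adjusted p = 0.000215). As a share of each library's FPKM sum it went from between 0.841% and 0.927% to between 1.23% and 1.25%. After quantile normalization, which gives the highest ranks of all libraries the same values, the adjusted p was 0.0748. Its neighbours, both on the minus strand and within 203 nt, rose too, from 18.2 ± 1.40 to 40.8 ± 1.59 FPKM before it and from 20.1 ± 2.55 to 37.9 ± 1.54 after it.

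**Figure D3:**
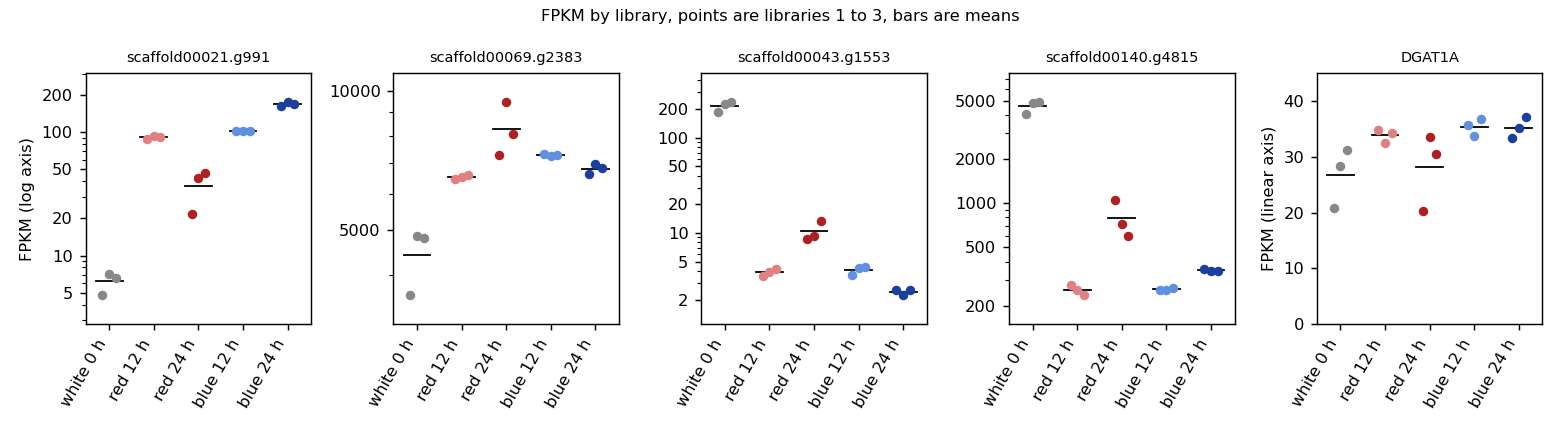
FPKM of the 4 models with the largest changes and of DGAT1A in the libraries of all 5 groups, with log axes except for DGAT1A. Points are libraries 1 to 3 of a group and bars their mean. The first 4 models were chosen among those without overlap of white 0 h and blue 12 h, and in them red 12 h lies close to blue 12 h. In DGAT1A, chosen by its name, white 0 h and blue 12 h do not overlap either, as in 73% of all tested models.

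The product of DGAT1A, by its name a diacylglycerol acyltransferase, belongs to the enzymes that complete triacylglycerol by joining a fatty acid to diacylglycerol. Its model is a separate entry of 2030 nt with 1 exon. White libraries 1, 2 and 3 held 20.9, 28.3 and 31.1 FPKM, and blue libraries 35.6, 33.8 and 36.8. Every blue library was above every white one, and white library 1, lowest over all genes as well, was lowest here. Such a lack of overlap, in either direction, was found in 73% of all tested models. The log2 difference of 0.41 ± 0.17 (SE) did not pass (limma adjusted p = 0.0526). It passed in 11 of 29 alternatives (adjusted p 6.41e-05 to 0.259), including the fit without white library 3 (0.0298) and each fit that left out a red 24 h library (0.00279 without number 1, 0.0397 without number 2 and 0.0479 without number 3). The difference was 0.25 without white library 1 (adjusted p = 0.238). Set against red 12 h the difference was 0.06 ± 0.17 (adjusted p = 0.934).

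The direction of change followed the abundance of a gene. Of 396 models with a mean of at least 200 FPKM over the 6 libraries, 63.6% rose and 15.2% fell, with a median log2 change of 0.77. Of 3499 models between 5 and 20 FPKM, 20.3% rose and 33.5% fell, with a median of -0.06, and below 5 FPKM 10.6% of 502 rose and 43.6% fell. The share of rises climbed with each of the 5 abundance classes in 28 of 29 alternatives. After quantile normalization it did not, at 52.2% under 5 FPKM, 42.3% at 20 to 50 and 50% at 200 or more. Abundance here includes the blue and white values themselves, and log2(FPKM + 1) compresses the changes of low genes.

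Abundant genes of white light split into both directions. Of the 100 most abundant models in white, 53 rose and 34 fell, and 25 of the falls were at least 4-fold. Of the 100 most abundant in blue, 88 rose, 1 fell and 11 did not pass, and the sets shared 61 models. Over the alternatives the rises numbered 32 to 57 and the falls 32 to 43 in the first set, and 64 to 95 and 0 to 6 in the second. Being chosen as high in a group favours that group in such counts.

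Longer transcripts fell more often. Of the 2392 models with the longest exon sequence (median 3390 nt) 32.9% fell and 25.3% rose, against 20.1% and 33.5% of the 2394 shortest (median 878.5 nt). Falls of at least 2-fold made up 20.7% and 13.5% of these classes. The longest models were also less abundant, with medians of 16.8 to 21.2 FPKM in white libraries against 24.1 to 29.4. Within every abundance class falls were still more frequent in the longest (38.7% against 28.2% at 5 to 20 FPKM). Rises were less frequent in the longest only at 5 to 20 FPKM (15.8% against 20.2%) and 20 to 50. They were close at 200 or more (61.2% against 61.5%). At 50 to 200 they were more frequent in the longest, as they were under 5 (14.1% against 8.78%). With each library's trend on length removed, which takes out any overall slope, falls still made up 26.8% of the longest and 20.9% of the shortest class. The order of the rises then turned, to 50% of the longest and 35.1% of the shortest, and after quantile normalization too the longest class did not have the smaller share. Exon number showed little by itself, with 26.1% falls in models of 1 exon, 25.7% at 2 to 3 exons, 25.9% at 4 to 7 and 30.2% at 8 or more.

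**Figure D4:**
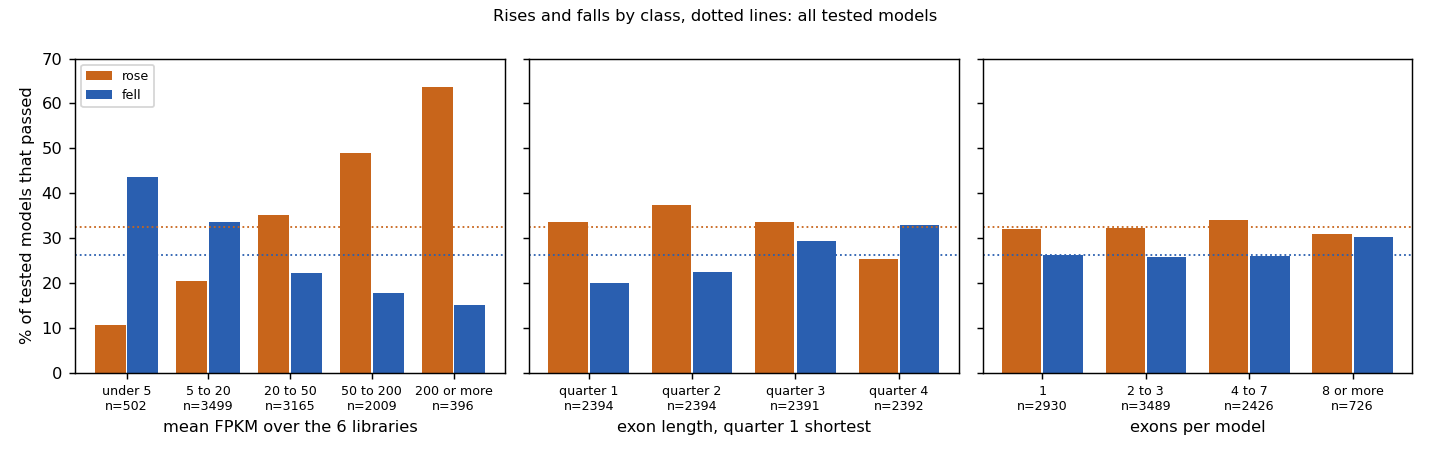
Percentage of tested models that rose or fell by class of mean FPKM over the 6 libraries, class of exon length and number of exons, with n under each pair of bars and dotted lines at 32.5% and 26.2%, the shares among all tested models. Rises climb from 10.6% to 63.6% across the abundance classes, and the classes of exon number differ little.

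A minority of the falls of at least 2-fold lay in rows along the scaffolds. In 18 places at least 5 tested models in a row all fell at least 2-fold, holding 134 models or 8.44% of such falls. Rises of that size gave 1 run, of 5 models on scaffold00330 (113927 to 130426), with a median that went from 38.9 FPKM in white to 94.7 in blue. Since 16.6% of models fell and 8.3% rose by that much, rises had less chance to form runs, and this difference was not tested. Runs of falls held both strands in all 18 cases. Across the 29 alternatives runs of falls numbered 12 to 21, and runs of rises 0 to 5.

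The longest run closed scaffold00295, where the last 29 models (1075109 to 1137324) fell. The median model there went from 44.9, 54.1 and 51.0 FPKM in the white libraries to 2.26, 2.09 and 2.15 in the blue ones. Log2 changes within it spanned -4.95 to -1.85, and the model next to it inside the scaffold rose. A run of 16 closed scaffold00026 (1456248 to 1494702), with a median model at 21.0 FPKM in white and 1.01 in blue, and a run of 8 opened scaffold00043 (1 to 22640), with 41.5 and 4.84. That last run holds scaffold00043.g1553. Inside a scaffold, 7 models of scaffold00259 (14871 to 41940) went from 189 to 10.2 FPKM, and the 5 around scaffold00140.g4815 (848952 to 869795) from 711 to 26.3. Of the 18 runs 7 reached the first or last model of a scaffold, with 74 of the 134 models.

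Models within 5 of an end, on scaffolds of more than 20 models, fell at least 2-fold in 25.7% of 424 cases, compared with 16% of the 8564 further in. This order held in all 29 alternatives. The 109 falls near an end include the 5 outermost models of runs that close or open scaffold00295, scaffold00026, scaffold00043, scaffold00214, scaffold00082 and scaffold00247. Models of 1 run were counted as separate cases, and the order without these runs was not tested. Models near an end were also less abundant, with medians of 16.5 to 21.7 FPKM in white libraries against 21.4 to 26.2 further in. The part of abundance in the difference of falls was not tested. Over the 33 scaffolds with more than 50 models, the share that fell at least 2-fold ran from 10.3% (scaffold00252) to 22.6% (scaffold00295), with a median of 15.9%.

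**Figure D5:**
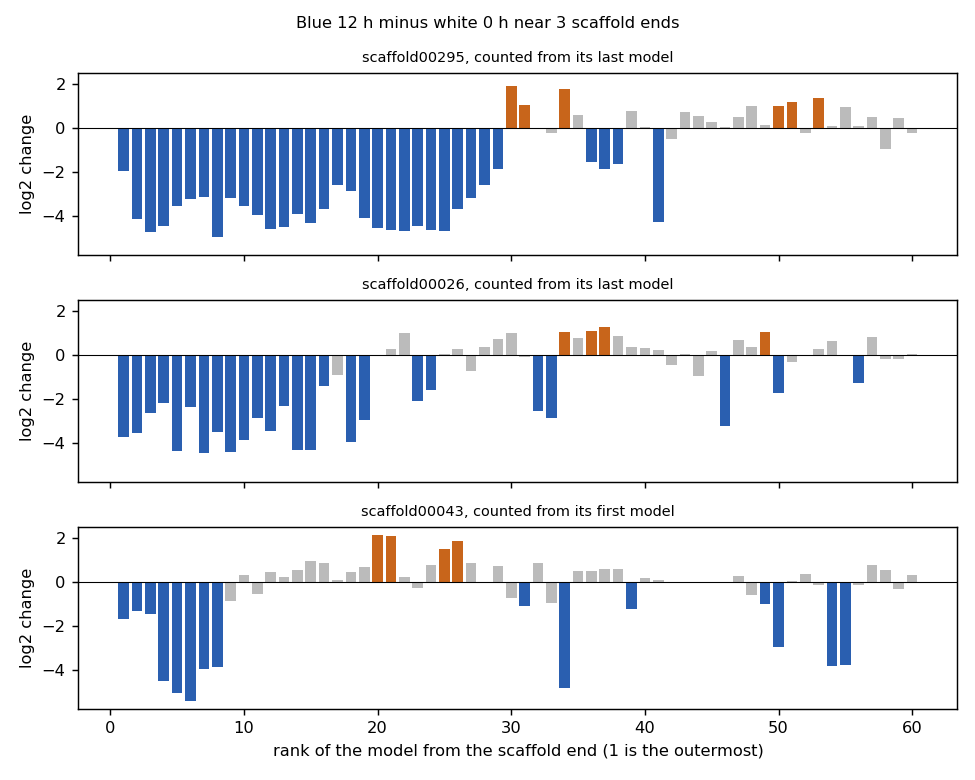
Log2 change (blue 12 h minus white 0 h) of the outermost 60 models, as far as tested, at the last end of scaffold00295 and scaffold00026 and the first end of scaffold00043, by rank from the end. Blue bars fell and orange bars rose at least 2-fold and passed, grey bars did not meet both; the runs of 29, 16 and 8 falls start at the outermost model, and the ends were chosen after their values were seen.

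Neighbouring genes were also read by orientation, over 9151 pairs of adjacent tested models, none of which overlap. Of all pairs both models rose in 13.3%, both fell in 10.0% and the models went opposite ways in 12.9%. Beside these stand 32.5% rises and 26.2% falls among all tested models, and departure from what unrelated neighbours would give was not tested. Divergent neighbours, with starts facing each other, both rose in 15.1% of 3110 pairs and went opposite ways in 10.5%. Convergent neighbours, whose ends face each other, both rose in 11.5% of 3075 pairs and went opposite ways in 15%. Tandem neighbours on the same strand lay between, at 13.1% and 13.3% of 2966. Both models fell in 11.6% of tandem, 10.6% of divergent and 7.93% of convergent pairs. Divergent pairs had the most joint rises and the fewest opposite changes, and convergent pairs the fewest joint falls, in all 29 alternatives. The shares themselves moved with the number of calls. Joint rises of divergent pairs stood at 9.36% without white library 1 and 24.7% without red 24 h library 1, those of convergent pairs at 6.73% and 19.7%. Opposite changes stood at 17.3% of divergent and 23.4% of convergent pairs without red 24 h library 1, and at 7.72% and 11.9% without blue library 2. Convergent models lie closest, with a median of 36 nt between them against 159 nt for divergent and 245 nt for tandem pairs. The strand setting of the counting is not given in the sources used here, and overlap of fragments from convergent neighbours was not tested.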

How the data were processed

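RNA of 15 libraries, 3 in each of 5 groups, was sequenced, and the 6 libraries of blue 12 h and white 0 h were compared. The authors deposited FPKM values per gene model. TopHat, TopHat2 2.0.4 and Cufflinks 2.0.4 are named in the submitters' processing notes, and the genome build is not given in the sources used here. No read counts were used as deposited. FPKM values are relative to their library, and their sums differed between libraries (430453 to 815138). A gain in abundant genes can lower the values of the others.

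From the deposited FPKM, log2(FPKM + 1) was tested with limma 3.58.1 in R 4.3.3, two-sided, in 1 fit of all 15 libraries with a mean per group and an abundance trend, over models with at least 1 FPKM in at least 3 of the 6 libraries, with Benjamini-Hochberg adjustment at 0.05. Fold changes are on the log2(FPKM + 1) scale, which understates the change of low genes. The fold printed beside a named model is the ratio of mean FPKM. The fit was tested on simulated data with independent noise and few changed models. No shift of whole libraries was simulated, so that run cannot speak to counts that such shifts move. Other steps ran in Python 3.11.15 with scipy 1.17.1, pandas 2.3.3 and numpy 2.4.6.

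Whole fragments were recovered from the FPKM steps, with all values up to 30 fragments whole within 0.1 in models of at least 500 nt effective length, and voom on them called 5397 models. Intervals from such fragments would cover counting error only and were not used.

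Named models were those with the largest log2 change and the largest FPKM difference in each direction among models that passed, did not overlap between the groups and reached a group mean of 10 FPKM, plus DGAT1A. The members, lists and classes were chosen with earlier results of these data known. None of the model IDs matched the 160 genes of the reference table, and of 7 gene lists 1 had a member, DGAT1A, so the cell type could not be checked by markers. Replicate numbers were not taken to pair libraries. The 29 alternatives changed the scaling, filter, pseudocount, model or libraries.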

Additional observations from a re-analysis of the deposited data

How the results depend on the processing

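The 2-fold and 4-fold falls kept their counts within 1.5 times in all 29 alternatives (1421 to 1858 and 734 to 1090), while the size of the rises moved with the scale. Rises of at least 4-fold numbered 88 after quantile normalization and 27 with a common library sum that leaves out the top 50 models. Rises of at least 2-fold numbered 1266 and 469 in these, 1199 after removal of the length trend, and 496 in voom. The median change was 0.26, -0.00077, 0.29 and -0.020 in these 4. Leaving out each library in turn gave 4952 to 7014 models that passed, 2361 to 4071 rises, 2212 to 2943 falls, 1526 to 1692 and 832 to 903 falls of at least 2-fold and 4-fold, 568 to 924 and 33 to 49 rises of these sizes, and medians of 0.04 to 0.18. The highest counts of models that passed, rose and fell came without red 24 h library 1, and limma array weights gave 7566. The cause of these moves was not tested.

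With the replicate block 5654 models passed, 3135 up and 2519 down. Same-numbered white and blue libraries deviated with correlations of -0.012 to 0.009, so the numbers were not read as pairs.

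Some differences near 0 changed sign. For scaffold00140.g4815, blue 12 h minus red 12 h was -0.012 with voom and -0.042 to 0.076 when a library was left out. For DGAT1A, blue 24 h minus blue 12 h was -0.045 to 0.029 when a library was left out. Depth limits the 90 models near 0 in blue, which rest on a median of 4.5 to 6 fragments per library.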
